A study of Mus musculus with 30 samples.

Results

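Hepatic glucose phosphorylation and gluconeogenesis are described here through 8 genes, Gckr, G6pc, Slc37a4, Fbp1, Pcx, Pklr, Pfkfb1 and Pfkfb3. They were chosen by name for their place in these pathways and matched by symbol, which gave 8 of the 55357 genes listed. The study measured polyA-selected, strand-specific RNA-seq in C57BL/6N mice on HFD (the field's abbreviation for a high-fat diet), an obese mouse model, with or without imeglimin, an oral glucose-lowering drug. Libraries came from brown adipose tissue (BAT), liver and sWAT, an abbreviation that the labels do not spell out, and fall into 6 groups of 5. The same 10 numbers recur in the 3 tissues, 75, 76, 79, 80 and 83 on HFD (labelled HFD) and 86, 88, 89, 91 and 94 on HFD with imeglimin (labelled HFD+Ime). The imeglimin libraries share the diet and strain of the controls, and no lean group was analysed here. The labels give no age, sex, dose or length of treatment, do not say that numbers stand for separate animals, and the design text names 4 against 4 where the labels give 5 against 5. P-values therefore measure the spread between these samples.

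The liver both takes up glucose and makes it. In the fed state glucokinase traps glucose as glucose 6-phosphate and glycolysis carries it to pyruvate, with the bifunctional PFKFB enzymes setting the level of fructose 2,6-bisphosphate, which speeds glycolysis and holds back gluconeogenesis. In fasting, pyruvate is turned to oxaloacetate, carried back up through fructose 1,6-bisphosphatase, and released as glucose by a glucose 6-phosphate transporter and phosphatase in the endoplasmic reticulum.

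Values are TPM, a transcript level scaled for transcript length and for the total of each library. Their depth is unknown, and a gene listed at 0 may lie below detection. In bulk tissue, fewer cells of a type and less RNA per cell cannot be told apart. Each labelled tissue carried its markers: 9 hepatocyte markers summed to 104719 to 119649 TPM in liver, 6 brown adipocyte markers to 9741 to 12469 TPM in BAT, and 5 adipocyte markers to 17256 to 30898 TPM in sWAT. Mitochondrially encoded genes took 37.1 to 40.8% of TPM in BAT and 11.1 to 15.04% in liver and sWAT, which lowers the TPM of all other genes in BAT. The sWAT imeglimin library 88 stood apart: 8 hepatocyte markers without Cyp2e1 summed to 14843 TPM against 16.6 to 864 TPM in the other 9 sWAT libraries, and its 6 B and T cell markers to 1350.3 TPM against 2.25 to 6.96 TPM. Cyp2e1 is left out of that sum because it made up most of the marker sum in 8 of those 9 libraries, at 324 to 989 TPM over the 9. Of the Kupffer cell markers, Timd4 was at 80.8 TPM in library 88, above the livers (0.262 to 3.44 TPM), Clec4f at 2.72 TPM, and Vsig4 at 0.302 TPM, within the other sWAT libraries. Several results that rest on library 88 are also given without it. Others are given only with it, such as the Pcx differences of responses and the sWAT results of the gene lists other than Pck1. BAT libraries 79 and 94 held 4755 and 4110.4 TPM of 8 skeletal muscle markers.

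The promoters of 3 genes that were high in liver and low in fat are shown because they hold motifs of liver or sugar response. All 8 genes matched a promoter table from RefSeq, with 16 windows of 250 bases before to 50 after a start site, coordinates on GRCm38.p6. Gckr (chr5:31297313-31297612, plus strand) encodes the protein that binds glucokinase and keeps it inactive in the hepatocyte nucleus. G6pc (chr11:101367466-101367765, plus strand) encodes the catalytic subunit of glucose 6-phosphatase. Pklr (chr3:89136373-89136672, plus strand, the downstream of its 2 starts) encodes the liver and red cell pyruvate kinase. Capitals mark the HNF1 half-site GTTAAT in Gckr and G6pc, and in Pklr paired E-box arms, CACGNG and CNCGTG 5 bases apart, the layout of a carbohydrate response element.
Gckr: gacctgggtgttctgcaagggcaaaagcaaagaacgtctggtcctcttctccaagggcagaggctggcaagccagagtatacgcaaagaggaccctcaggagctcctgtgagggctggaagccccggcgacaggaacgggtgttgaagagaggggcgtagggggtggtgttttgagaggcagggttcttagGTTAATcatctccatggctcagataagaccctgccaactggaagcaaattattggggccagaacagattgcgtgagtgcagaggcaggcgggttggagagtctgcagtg
G6pc: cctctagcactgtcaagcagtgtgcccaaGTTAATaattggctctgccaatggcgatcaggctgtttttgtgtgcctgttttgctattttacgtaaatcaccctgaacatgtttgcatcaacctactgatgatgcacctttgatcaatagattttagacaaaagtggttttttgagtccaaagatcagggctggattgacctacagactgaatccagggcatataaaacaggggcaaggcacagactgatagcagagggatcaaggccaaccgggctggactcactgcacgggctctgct
Pklr: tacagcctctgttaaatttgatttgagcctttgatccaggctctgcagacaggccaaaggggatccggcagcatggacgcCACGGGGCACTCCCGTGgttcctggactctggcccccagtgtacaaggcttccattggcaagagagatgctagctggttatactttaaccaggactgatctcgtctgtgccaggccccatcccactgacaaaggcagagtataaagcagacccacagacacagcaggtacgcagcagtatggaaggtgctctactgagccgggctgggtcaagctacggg
Counted from the start site, the HNF1 half-site began at -59 in Gckr and at -221 in G6pc, and was found in 3 of the 16 windows. The third was a Pfkfb1 window, at -114, and Pfkfb1 levels overlapped between liver and sWAT on HFD. Searched on both strands, the half-site was in 7.10% of all 32851 windows, so it is a common run of letters. The paired E-box arms, a pattern that reads the same on both strands, began at -170 in Pklr and were in 1 of the 16 windows and in 0.0457% (15) of all windows. The E-box CACGTG was in 2 of the 16 windows and 7.15% of all windows, the cAMP response half-site TGACG in 4 of 16 and 20.8%, and the forkhead site TGTTT in 5 of 16 and 50.5%. G6pc held 4 forkhead sites in its window, while the Fbp1 window held none of these motifs. A match is a run of letters and not a measured binding site.

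**Figure D1:**
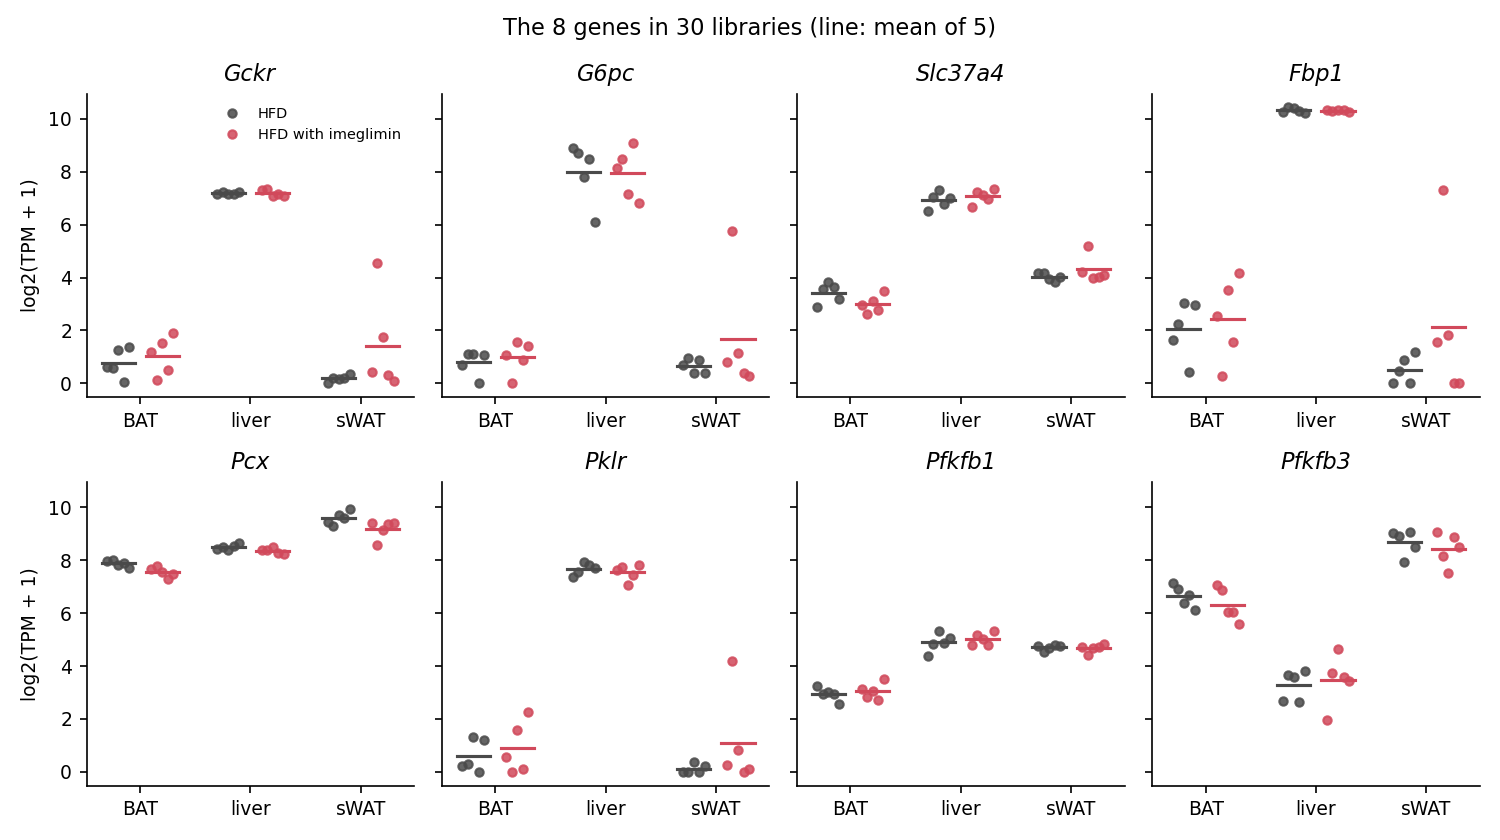
The level of each of the 8 genes in every library, as log2(TPM + 1), by tissue, with HFD in grey and HFD with imeglimin in red; lines are means of 5. Gckr, G6pc, Fbp1 and Pklr were far higher in liver than in fat, with 1 sWAT library (number 88) above the other fat libraries, Pcx was high in all 3 tissues, and Pfkfb3 was lowest in liver.

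In liver on HFD the most abundant of the 8 was Fbp1, fructose 1,6-bisphosphatase, at 1289 ± 86.7 TPM (mean ± SD, n = 5). Pcx, pyruvate carboxylase, which makes oxaloacetate in mitochondria, followed at 362 ± 29.3 TPM, and G6pc at 308 ± 164 TPM. Pklr stood at 205 ± 31.2 TPM, Gckr at 145 ± 5.02 TPM and Slc37a4, the transporter that carries glucose 6-phosphate into the endoplasmic reticulum, at 123 ± 25.4 TPM. Pfkfb1, the liver isoform of the bifunctional enzyme, was at 29.4 ± 6.89 TPM, above Pfkfb3, an isoform with high kinase activity, at 9.27 ± 3.67 TPM. G6pc overlapped Pcx, Pklr, Gckr and Slc37a4 between libraries, and Gckr overlapped Slc37a4, so the order within these pairs is not settled by these samples.

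The liver levels differed in how steady they were. Fbp1 was at 1237, 1385, 1374, 1259 and 1189 TPM in the HFD livers 75, 76, 79, 80 and 83, and at 1300.2, 1241, 1282, 1298 and 1212 TPM in the imeglimin livers 86, 88, 89, 91 and 94. Gckr was at 142, 151, 140.4, 140.4 and 149 TPM on HFD and at 158, 164, 134, 141 and 136 TPM with imeglimin, in the same order of libraries, which is used throughout. The highest of the 10 livers was 1.17 times the lowest for Fbp1 and 1.22 times for Gckr.

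G6pc was the opposite case among enzymes of the same pathway. It was at 476, 419.7, 222, 354 and 67.9 TPM in the HFD livers and at 284, 352, 141, 544 and 112 TPM in the imeglimin livers, and its highest level was 8.02 times its lowest. Low livers were in both groups (83, 94 and 89), and the groups overlapped over most of their range. Its coefficient of variation was 53.3% on HFD and 61.0% with imeglimin, against 6.73% and 3.04% for Fbp1. Pfkfb3 also varied, at 5.42, 11.6, 11.0, 5.23 and 13.0 TPM on HFD and 2.88, 12.5, 24.0, 11.2 and 9.86 TPM with imeglimin, with coefficients of variation of 39.6% and 63.1%.

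The remaining liver levels lay between these cases. Slc37a4 was at 90.2, 130.0, 158, 109 and 128 TPM on HFD and 101, 150.2, 138, 125 and 161 TPM with imeglimin. Pfkfb1 was at 19.9, 27.7, 38.7, 28.0 and 32.6 TPM on HFD and 27.1, 34.8, 31.1, 26.8 and 39.2 TPM with imeglimin. Both genes were lowest in HFD liver 75 and highest in HFD liver 79 and imeglimin liver 94. Pklr was at 163, 189, 244, 222 and 206 TPM on HFD and 199.8, 216, 131, 172 and 225 TPM with imeglimin, with all but 1 imeglimin liver (89) inside the HFD range.

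Of the 28 pairs among the 8 genes, deviations from the group means over the 10 livers were correlated past the threshold for 1 pair, Slc37a4 and Pfkfb1. Pearson's r was 0.92 (exact permutation within groups, two-sided p = 0.00139, adjusted over 28 pairs 0.0389) and Spearman's rho 0.85 (p = 0.00694 by exact permutation, adjusted 0.194). Without livers 75 and 86, the farthest from the median, r was 0.88. The rank measure did not pass after adjustment, and with each library scaled to a common median ratio r was 0.91 with an adjusted p of 0.0544 by exact permutation. G6pc and Pfkfb1 gave r = -0.61 and rho = -0.77 (p = 0.0210 by exact permutation, adjusted 0.295), which did not pass.

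**Figure D2:**
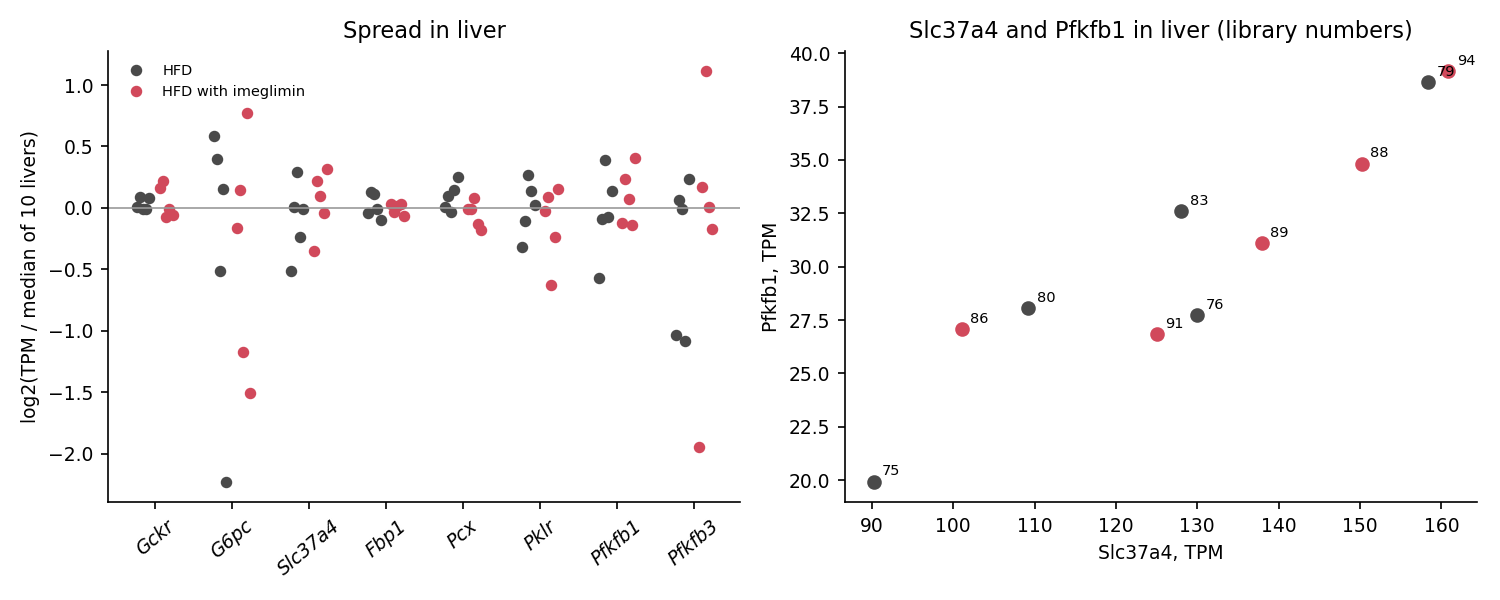
Left, each liver's level as log2 of its TPM over the median of the 10 livers, by gene and treatment. Right, Slc37a4 against Pfkfb1 in TPM, with library numbers. G6pc and Pfkfb3 spread widely in both groups while Fbp1 and Gckr did not, and livers high in Slc37a4 were high in Pfkfb1 (r = 0.92 within groups).

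Likeness over the 10 livers, measured as Pearson's r of deviations from the group means across 5345 genes of at least 10 TPM, put other genes ahead of the pathway's own. The closest to G6pc were Hars (r = 0.93), Siah2 (0.92) and Mapk1ip1l (0.91), and to Slc37a4 Pip4p2 (0.95), Igsf5 (0.94) and Txlng (0.93). Pfkfb1 was closest to Mapk14 (0.94), Lsm6 (0.94) and Neurl4 (0.92), and Fbp1 to Ubl4a (0.90), Oat (0.89) and Cops8 (0.89). Pcx had Dpp9 (0.95), Gas6 (0.95) and Qrich1 (0.95), Gckr had Rnpepl1 (0.96), R3hdm2 (0.95) and Hp1bp3 (0.94), Pklr had Abcf3 (0.94), Polr3gl (0.93) and Cdc5l (0.92), and Pfkfb3 had Gnl1 (0.92), Azin1 (0.89) and Spin1 (0.88). These are the top values of a search over 10 libraries and are given as a description.

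Between tissues on HFD, 7 of the 8 genes were higher in liver than in BAT and 1, Pfkfb3, was lower, by limma with Benjamini-Hochberg adjustment over 14023 genes, of which 44.4% were called higher and 30.2% lower. Against sWAT, 5 were higher in liver, 2 (Pcx and Pfkfb3) were lower and Pfkfb1 did not pass, where 14.9% of genes were called higher in liver and 76.1% lower. Between BAT and sWAT, Fbp1 was higher in BAT and 4 genes (Slc37a4, Pcx, Pfkfb1 and Pfkfb3) were lower, where 6.57% were called higher in BAT and 83.7% lower. Gckr, G6pc and Pklr passed the filter only through liver (2, 3 and 2 BAT and 0 sWAT libraries on HFD reached 1 TPM). They are among the genes counted as higher in liver, where the filter left the test little to decide. Only the sizes of their tissue differences are therefore given, without a test. The 8 genes were named for liver pathways, so higher levels in liver are what that choice leads to. With most genes called, a call says little by itself, so sizes are given. The median log2 difference of all genes was 0.16 for liver minus BAT, -1.03 for liver minus sWAT and -1.26 for BAT minus sWAT, so differences within about this size of 0 turn on the scaling. With median-ratio scaling the genes higher and lower went from 6226 and 4236 to 5230 and 5491 for liver minus BAT, from 2094 and 10669 to 5712 and 5582 for liver minus sWAT, and from 921 and 11734 to 4359 and 5158 for BAT minus sWAT.

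Fbp1 had the widest tissue difference of the 8. In BAT it was at 2.12, 3.75, 7.24, 0.34 and 6.72 TPM on HFD and 4.79, 0.21, 10.5, 1.97 and 17.3 TPM with imeglimin. In sWAT it was listed at 0 in libraries 75, 80, 91 and 94, at 0.393, 0.841 and 1.3 TPM in the other HFD libraries, at 1.95 and 2.53 TPM in imeglimin libraries 86 and 89, and at 156 TPM in library 88. The log2 difference on the log2(TPM + 1) scale was 8.27 (SE 0.389, limma adjusted p = 6.53e-12) for liver minus BAT and 9.82 (SE 0.389, limma adjusted p = 4.12e-13) for liver minus sWAT. No fat library reached the liver range.

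Gckr, G6pc and Pklr followed the same order. Gckr was at 0.517, 0.512, 1.4, 0.0334 and 1.63 TPM in BAT on HFD and 1.25, 0.0826, 1.89, 0.435 and 2.72 TPM with imeglimin. Its liver minus BAT log2 difference was 6.40 (SE 0.191). G6pc was at 0.605, 1.15, 1.16, 0 and 1.1 TPM in BAT on HFD and 1.13, 0, 1.92, 0.867 and 1.68 TPM with imeglimin, and its log2 difference was 7.20 (SE 0.408). Pklr was at 0.181, 0.214, 1.49, 0 and 1.31 TPM in BAT on HFD and 0.474, 0, 2.02, 0.0647 and 3.86 TPM with imeglimin, and its log2 difference was 7.06 (SE 0.222). In sWAT, outside library 88, none of the 3 exceeded 2.35 TPM, and library 88 held 22.6 TPM of Gckr, 53.6 TPM of G6pc and 17.3 TPM of Pklr. Their liver minus sWAT log2 differences on HFD were 7.0 for Gckr, 7.35 for G6pc and 7.56 for Pklr.

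Within fat, these low levels moved with Alb, which encodes albumin and is made by hepatocytes. Alb was at 45846 to 63707 TPM in liver. In BAT it was at 71.5, 174, 439, 5.004 and 381 TPM on HFD and 259, 2.50, 342, 79.8 and 703 TPM with imeglimin. The 2 libraries lowest in Alb, 80 and 88, were also lowest in Gckr and Fbp1, and were listed at 0 for G6pc and Pklr. BAT library 94 was highest in Alb and in Gckr, Fbp1 and Pklr. The 9 hepatocyte markers summed to 17.6 to 961 TPM in BAT on HFD and 24.0 to 1700.2 TPM with imeglimin, and none was at 0 in all libraries of a group.

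Over the 10 BAT libraries, log2(TPM + 1) of Fbp1 and Alb had r = 0.95 (permutation p = 3e-05, adjusted over 16 relations 0.00024) and rho = 0.95 (permutation p = 0.00011, adjusted 0.00096). For Gckr r was 0.90 (permutation p = 3e-05, adjusted 0.00024) with rho = 0.90, for G6pc 0.96 (permutation p = 0.00015, adjusted 0.0006) with rho = 0.85, and for Pklr 0.77 (permutation p = 0.0106, adjusted 0.0242) with rho = 0.95. The adjusted permutation p of rho was 0.00292 for Gckr, 0.00963 for G6pc and 0.00096 for Pklr. Without libraries 80 and 88, the farthest from the median of Alb, r was 0.95 for Fbp1, 0.93 for Gckr, 0.79 for G6pc and 0.90 for Pklr. The other 4 genes did not pass, with r = 0.33 for Slc37a4, -0.33 for Pcx, 0.30 for Pfkfb1 and -0.48 for Pfkfb3, and lowest adjusted permutation p of 0.219 over both measures. Without libraries 80 and 88 their r was 0.66 for Slc37a4, -0.14 for Pcx, 0.23 for Pfkfb1 and -0.54 for Pfkfb3. These relations were computed after the levels had been seen. Gckr, G6pc and Pklr reached 1 TPM in only 2, 3 and 2 BAT libraries on HFD and in 3, 3 and 2 with imeglimin.

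In sWAT, library 88 had 6876 TPM of Alb against 15.1 to 354 TPM in the other 9, so relations were taken over those 9. Levels there were near the floor and of unknown precision. Their medians over the 9 were 0.393 TPM for Fbp1, 0.154 TPM for Gckr, 0.0777 TPM for Pklr and 0.605 TPM for G6pc. Fbp1 again followed Alb, with r = 0.91 (exact permutation p = 0.000132, adjusted 0.0006) and rho = 0.94 (exact permutation p = 0.000661, adjusted 0.00292). Gckr had r = 0.85 (exact permutation p = 0.00362, adjusted 0.0116) with rho = 0.80 (exact permutation p = 0.0138, adjusted 0.0369), and Pklr r = 0.86 (exact permutation p = 0.00476, adjusted 0.0127) with rho = 0.77 (exact permutation p = 0.0226, adjusted 0.0517). Without libraries 89 and 94, r was 0.86 for Fbp1, 0.63 for Gckr and 0.72 for Pklr. G6pc did not pass (r = 0.53, exact permutation p = 0.141, adjusted 0.251), and its r without those libraries was -0.15. The other 4 genes did not pass either, with r = -0.08 for Slc37a4, -0.23 for Pcx and -0.48 for Pfkfb1. For Pfkfb3 r was -0.68 (exact permutation p = 0.0449, adjusted 0.0898) with rho = -0.25, and for Pfkfb1 rho was -0.67 (exact permutation p = 0.0589, adjusted 0.118).

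Per 1000 TPM of Alb, Fbp1 had a median of 22.1 TPM in liver (18.7 to 29.97), 24.6 TPM in BAT and 22.7 TPM in sWAT library 88. Pklr had a median of 3.25 TPM per 1000 TPM of Alb in liver (2.12 to 5.33), 2.18 TPM in BAT and 2.51 TPM in sWAT library 88. Gckr had 2.55 TPM in liver (2.16 to 3.06), 5.15 TPM in BAT and 3.28 TPM in sWAT library 88. G6pc had 5.24 TPM in liver (1.07 to 9.64), 3.62 TPM in BAT and 7.79 TPM in sWAT library 88. The BAT ratios ranged widely, from 16.5 to 84.2 TPM for Fbp1, 2.94 to 33.1 TPM for Gckr, 0 to 5.91 TPM for Pklr and 0 to 10.9 TPM for G6pc. Over all sWAT libraries the medians were 6.73 TPM for Fbp1 (listed at 0 in 4) and 4.04 TPM for Gckr. They were 2.24 TPM for Pklr and 10.1 TPM for G6pc (3.45 to 39.5). In sWAT the medians of Gckr and G6pc thus lay above the liver range, that of Fbp1 below it and that of Pklr within it. In BAT the Gckr median also lay above its liver range. Slc37a4, Pcx, Pfkfb1 and Pfkfb3 had ratios in fat far above those in liver, with medians in BAT of 45.8, 1133, 34.1 and 599.9 TPM per 1000 TPM of Alb against 2.22, 5.86, 0.490 and 0.199 TPM in liver. How RNA of hepatocyte genes came to be in the fat libraries was not tested.

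Library 88 allows the same comparison with the liver library of that number. Alb in sWAT 88 was 11.7% of Alb in liver 88, and Fbp1 in sWAT 88 was 12.6% of its liver level, Gckr 13.8%, G6pc 15.2% and Pklr 8.002%. Slc37a4 in sWAT 88 was 23.8% of its liver level, at 35.7 TPM against 13.4 to 17.5 TPM in the other 9 sWAT libraries. Pcx (380.0 TPM) and Pfkfb1 (20.6 TPM) were below all of those 9, whose lowest were 566 and 22.1 TPM. Pfkfb3 (289 TPM) was within their range of 182 to 537 TPM. The part of liver RNA in these levels was not tested.

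**Figure D3:**
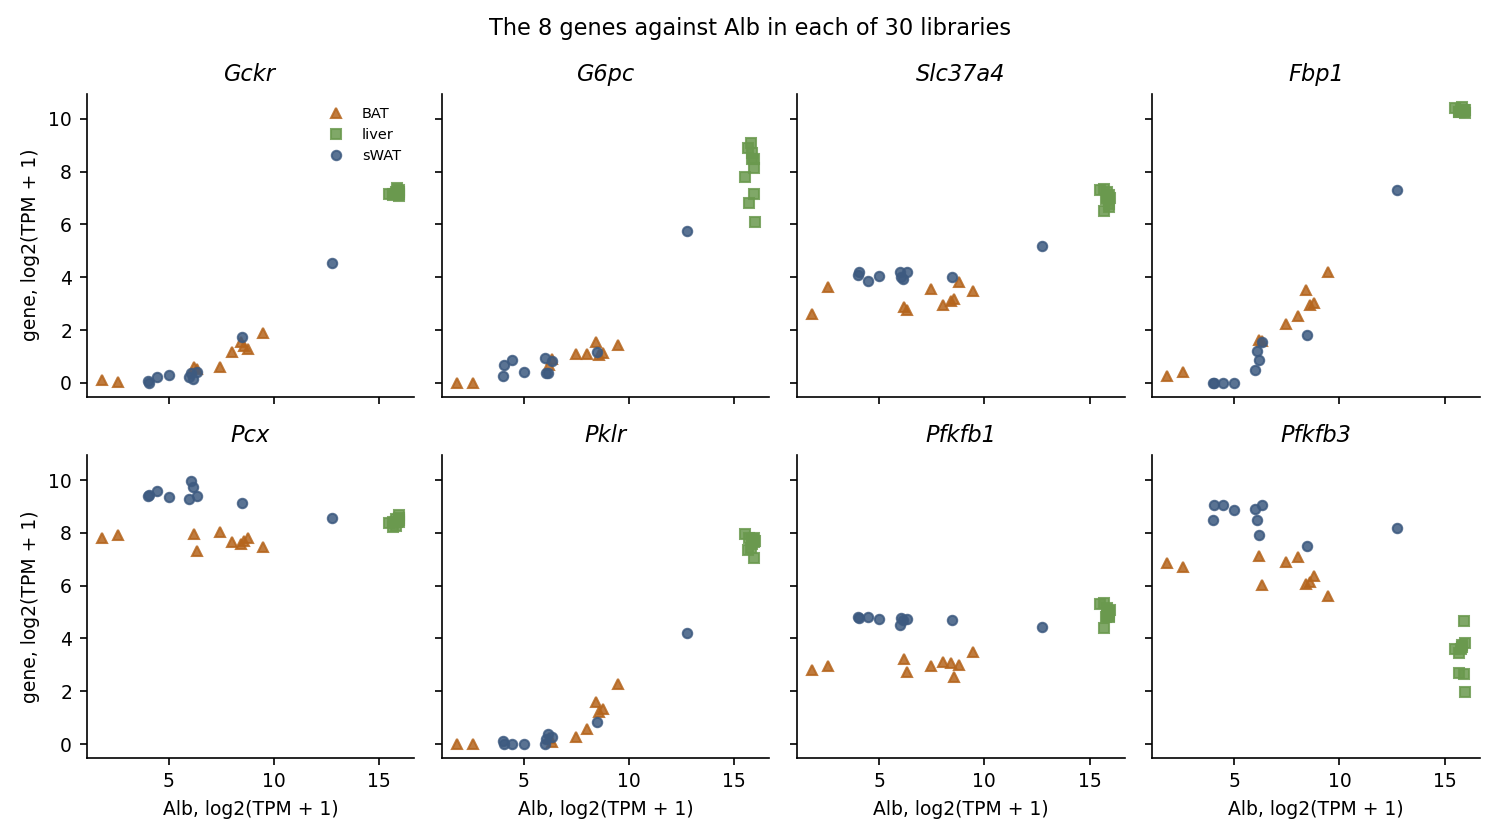
Each gene against Alb, both as log2(TPM + 1), in all 30 libraries, with BAT as triangles, liver as squares and sWAT as circles. Fbp1, Gckr and Pklr were higher where Alb was higher, with sWAT library 88 (6876 TPM of Alb) between the other fat libraries and liver, while Pcx and Pfkfb3 were high in fat at low Alb.

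Slc37a4 had a clear level in both fat depots, with no relation to Alb past the threshold. It was at 6.31, 10.7, 13.2, 11.5 and 8.05 TPM in BAT on HFD and at 17.2, 17.1, 14.3, 13.4 and 15.3 TPM in sWAT on HFD. The liver minus BAT log2 difference was 3.52 (SE 0.170, limma adjusted p = 9.18e-12) and the liver minus sWAT difference 2.90 (SE 0.170, limma adjusted p = 6.56e-11). BAT minus sWAT was -0.62 (SE 0.170, limma adjusted p = 0.00271) as deposited, but 0.74 with median-ratio scaling and -0.16 (limma adjusted p = 0.362) without mitochondrially encoded genes, so the order of the fat depots turned on the scaling.

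Pcx was abundant in all 3 tissues. On HFD it was at 339.7, 363, 330.1, 375 and 404 TPM in liver, at 248, 259.6, 225, 239 and 207 TPM in BAT and at 698, 627, 846, 766 and 985 TPM in sWAT, and no 2 of these groups overlapped. Liver minus BAT was 0.62 (SE 0.104, limma adjusted p = 4.95e-05), 0.37 (limma adjusted p = 0.0212) with median-ratio scaling, and 0.11 (limma adjusted p = 0.347) without mitochondrially encoded genes. Liver minus sWAT was -1.10 (SE 0.104, limma adjusted p = 3.25e-08) and reversed to 0.13 (limma adjusted p = 0.398) with median-ratio scaling. BAT minus sWAT was -1.72 (SE 0.104, limma adjusted p = 1.18e-10), and -0.24 (limma adjusted p = 0.124) with that scaling. On the deposited scale sWAT held the most Pcx, and with median-ratio scaling only the liver minus BAT difference still passed.

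Of the 2 PFKFB genes, Pfkfb3 was higher in both fat depots than in liver. Pfkfb3 was at 527, 479, 243, 536 and 361 TPM in sWAT on HFD and at 140.1, 119, 82.4, 103 and 69.4 TPM in BAT, against 5.23 to 13.0 TPM in liver. Its log2 difference was -3.38 (SE 0.274, limma adjusted p = 8.43e-09) for liver minus BAT and -5.41 (SE 0.274, limma adjusted p = 9.48e-12) for liver minus sWAT. BAT minus sWAT was -2.04 (SE 0.274, limma adjusted p = 2.39e-06), and -0.57 (limma adjusted p = 0.0681) with median-ratio scaling. Pfkfb3 shares its span with Gm10851 on the opposite strand, at a mean of 58.1 TPM in sWAT and 11.3 TPM in BAT, and whether counting used the strand is not given in the sources used here.

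Pfkfb1 overlapped between liver and sWAT on the deposited scale. It was at 26.4, 22.1, 24.8, 27.1 and 26.4 TPM in sWAT and 8.44, 6.67, 7.07, 6.7 and 4.87 TPM in BAT on HFD. Liver minus sWAT was 0.18 (SE 0.147, limma adjusted p = 0.257) and did not pass, but it was 1.35 (limma adjusted p = 5.06e-07) with median-ratio scaling, 0.32 (limma adjusted p = 0.0295) without HFD number 75 and 0.34 (limma adjusted p = 0.0340) in the imeglimin libraries, where it was 0.24 (limma adjusted p = 0.145) without number 88. Liver minus BAT was 1.96 (SE 0.147, limma adjusted p = 3.17e-09) and BAT minus sWAT -1.78 (SE 0.147, limma adjusted p = 5.78e-09). Within libraries, which frees the comparison from scaling, the log2 ratio of Pfkfb3 to Pfkfb1 on HFD was 3.91 ± 0.235 (SD, n = 5) in BAT and 4.03 ± 0.483 in sWAT, against -1.74 ± 0.474 in liver. Pfkfb3 exceeded Pfkfb1 in every fat library and was below it in every liver library. Pfkfb1 shares its span with Apex2 on the opposite strand, at means of 1.66 TPM in BAT, 2.52 TPM in liver and 5.34 TPM in sWAT. The limit on strand given for Pfkfb3 therefore holds for Pfkfb1 and for this ratio.

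Between the fat depots on HFD, Fbp1 was higher in BAT by 1.55 on the log2 scale (SE 0.389, limma adjusted p = 0.00137). Gckr, G6pc and Pklr differed by 0.60 (SE 0.191), 0.14 (SE 0.408) and 0.49 (SE 0.222), given without a test for the reason above. In the imeglimin libraries the differences were 0.28 (limma adjusted p = 0.821) for Fbp1, -0.38 for Gckr, -0.69 for G6pc and -0.17 for Pklr. With number 88 left out of the imeglimin libraries they were 2.11 (limma adjusted p = 0.00249) for Fbp1, 0.64 for Gckr, 0.58 for G6pc and 0.84 for Pklr, the same direction as on HFD for each. On HFD Alb ranged from 5.004 to 439 TPM in BAT and from 15.5 to 70.2 TPM in sWAT, and its part in these differences was not tested.

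Imeglimin against HFD was the study's question in each tissue. None of the 8 genes passed limma at an adjusted p of 0.05 in any tissue. In liver all 8 were tested and 0 of 11516 genes (0.00%) were called, with 192 genes higher and 292 lower at an unadjusted p under 0.05. In BAT 7 were tested, since Pklr was under the filter, and 0.868% of 11402 genes were called (1 rose and 98 fell), a count that was 0 without library 76, 79, 80, 89, 91 or 94, 37 without 75, 205 without 83 and 698 without 88. In sWAT 4 were tested (Slc37a4, Pcx, Pfkfb1 and Pfkfb3), and 0.0146% of 13736 genes were called (2 genes, both higher), a count that was 0 without library 75, 79, 80, 89, 91 or 94, 1 without 76 or 83 and 4 without 88. For none of the 8 did the imeglimin and HFD libraries separate without overlap, where 6.81% of genes did in BAT, 0.695% in liver and 3.05% in sWAT. The unadjusted p was under 0.05 for Pcx alone, in BAT (1 of 7) and in sWAT (1 of 4). Of all genes 24.3% had such a p in BAT, 4.20% in liver and 11.3% in sWAT, so these counts are not apart from the background.

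In liver the differences were small or uncertain. On the log2 scale imeglimin minus HFD was 0.02 (SE 0.0658) for Gckr and -0.02 (SE 0.0576) for Fbp1, the 2 steadiest genes. G6pc differed by -0.06 with an SE of 0.561, so a large change in either direction was not detectable among these livers. Slc37a4 differed by 0.14 (SE 0.156), Pklr by -0.13 (SE 0.151), Pfkfb1 by 0.13 (SE 0.161) and Pfkfb3 by 0.20 (SE 0.429). The adjusted p was 0.984 or more for each of the 8 by limma.

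Pcx was lower on average with imeglimin in each tissue, without passing. In BAT it was at 201, 222, 188, 156 and 177 TPM with imeglimin against 248, 259.6, 225, 239 and 207 TPM on HFD, and 4 of the 5 imeglimin libraries lay below the lowest HFD library. The log2 difference was -0.32 (SE 0.0947, unadjusted p = 0.00584, limma adjusted p = 0.0880), where the median of all genes was -0.12. It was -0.18 (limma adjusted p = 0.359) with median-ratio scaling. Without imeglimin number 88 it was -0.38 (limma adjusted p = 0.0392), past the threshold, and over the other single libraries left out the adjusted p stayed above 0.05.

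In sWAT Pcx was at 675, 380.0, 566, 658 and 679.9 TPM with imeglimin, with 2 of 5 libraries below the lowest HFD library. The log2 difference was -0.42 (SE 0.178, unadjusted p = 0.0382, limma adjusted p = 0.412), and -0.27 (limma adjusted p = 0.393) without library 88, the lowest of the group. In liver it was at 337, 336, 357, 309 and 299 TPM with imeglimin, again with 2 of 5 below the lowest HFD library, and the log2 difference was -0.14 (SE 0.0702, limma adjusted p = 0.984).

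Slc37a4 in BAT was at 6.78, 5.09, 7.58, 5.83 and 10.2 TPM with imeglimin, with 2 of 5 libraries below the HFD range. The log2 difference was -0.43 (SE 0.203, limma adjusted p = 0.219). In sWAT it was at 17.5, 35.7, 14.9, 15.4 and 16.0 TPM with imeglimin, a log2 difference of 0.27 (SE 0.212, limma adjusted p = 0.628), and 0.05 (limma adjusted p = 0.873) without library 88.

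Both PFKFB isoforms overlapped between treatments in fat. Pfkfb3 in BAT was at 134, 115, 65.4, 64.5 and 47.2 TPM with imeglimin (log2 difference -0.33, SE 0.287, limma adjusted p = 0.506) and in sWAT at 537, 289, 182, 465 and 357 TPM (-0.27, SE 0.304, limma adjusted p = 0.735). Pfkfb1 in BAT was at 7.73, 6.03, 7.29, 5.65 and 10.3 TPM with imeglimin (0.11, SE 0.157, limma adjusted p = 0.713) and in sWAT at 25.4, 20.6, 25.0, 25.4 and 27.4 TPM (-0.03, SE 0.0939, limma adjusted p = 0.891). Without library 88 the Pfkfb1 difference in sWAT was 0.03 (limma adjusted p = 0.919). In BAT, Gckr differed by 0.27 (SE 0.358), G6pc by 0.20 (SE 0.308) and Fbp1 by 0.36 (SE 0.731), which are levels that moved with Alb from library to library.

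**Figure D4:**
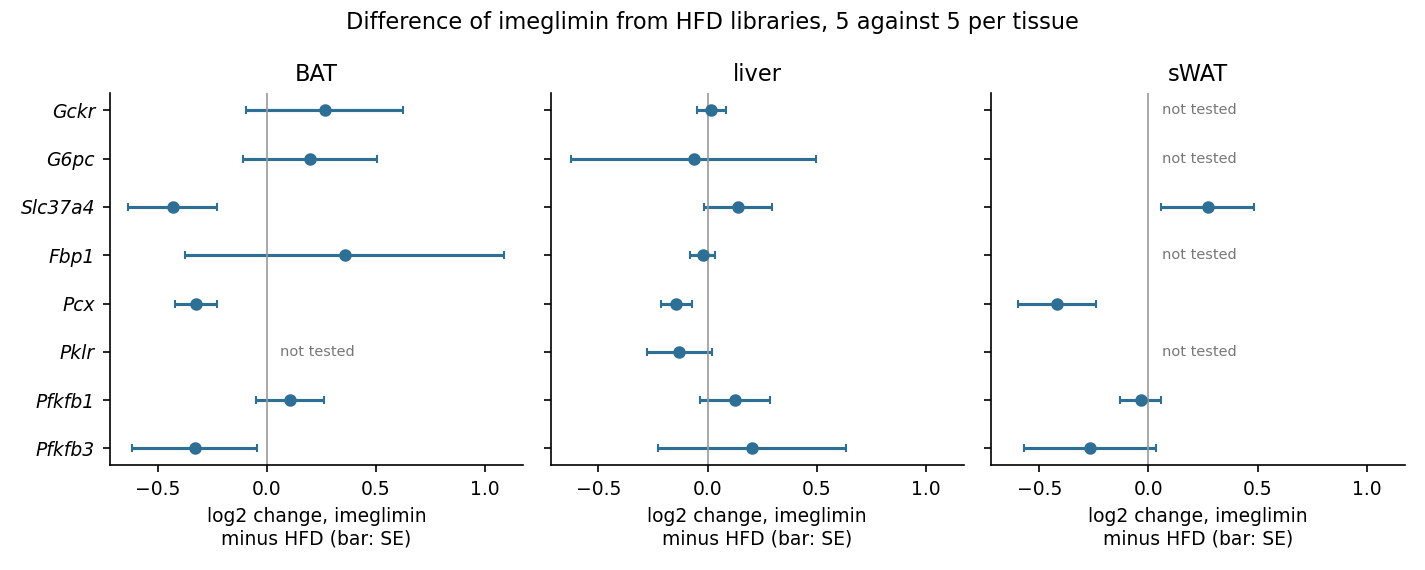
The log2 difference of imeglimin from HFD for each gene, on the log2(TPM + 1) scale, in BAT, liver and sWAT; bars are standard errors and genes under the level filter are marked as not tested. None passed at an adjusted p of 0.05, Pcx was below 0 in all 3 tissues (-0.32, -0.14 and -0.42), and G6pc in liver had the widest error of the liver values.

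Whether the response differed between tissues was tested as the difference of responses over all 30 libraries, with 14953 genes. None of the 8 passed for BAT minus liver (0.167% of genes called), sWAT minus liver (0.127% called) or BAT minus sWAT (2.05% called). Of the genes called for BAT minus sWAT 269 were lower and 37 higher, a split that became 18 and 19 with median-ratio scaling, and for BAT minus liver it went from 24 lower and 1 higher to 7 and 3. Among the 8, the lowest p was for Slc37a4, BAT minus sWAT, at -0.70 (SE 0.292, unadjusted p = 0.0232, limma adjusted p = 0.187), and it was -0.38 (limma adjusted p = 0.403) without number 88. For Pcx the difference of responses was -0.18 (SE 0.182) for BAT minus liver, -0.28 (SE 0.182) for sWAT minus liver and 0.10 (SE 0.182) for BAT minus sWAT.

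Ratios between pairs of the 8 genes within a library were compared by exact two-sided permutation tests in 8 cases, and none passed (adjusted p = 0.921 for each, smallest p the design allows 0.00794). The log2 ratio of Pfkfb3 to Pfkfb1 went from 3.91 ± 0.235 on HFD to 3.45 ± 0.827 with imeglimin in BAT (SD, n = 5 each; exact p = 0.302). In liver the log2 ratio of Pklr to G6pc, glycolysis against glucose output, was -0.33 ± 1.25 on HFD and -0.39 ± 0.971 with imeglimin (exact p = 0.921). That of Slc37a4 to G6pc in liver was -1.07 ± 1.31 and -0.87 ± 1.09 (exact p = 0.770). That of Fbp1 to Pcx in liver was 1.83 ± 0.190 and 1.95 ± 0.0929 (exact p = 0.254), with all 5 imeglimin livers above the HFD mean and the groups overlapping.

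Other genes of the pathways were read from 5 lists of 62 genes, chosen with earlier results of these data known. In liver none of the tested members passed in any list, 13 gluconeogenic enzymes, 7 hexokinases and glycolytic control genes, 10 genes of amino acid entry, 16 transcriptional regulators and 9 genes of glucagon and insulin response. The list medians ran from -0.10 to 0.13 on the log2 scale, against -0.01 for all genes. The lowest p-value of each list was for Gpt2 (0.13, SE 0.0652), an alanine aminotransferase, Sdsl (-0.39, SE 0.0985), a serine dehydratase-like gene, Irs2 (0.70, SE 0.239), an insulin receptor substrate, Khk (-0.20, SE 0.0740), ketohexokinase, and Nr3c1 (0.19, SE 0.0710), the glucocorticoid receptor, each with a limma adjusted p of 0.984.

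In BAT 1 of the 9 tested hexokinase and glycolytic control genes fell and 8 did not pass, where 0.868% of all genes were called. The list median was -0.40 against -0.12 for all genes. The gene that fell was Pkm, the pyruvate kinase of most tissues other than liver. It was at 594, 735, 717, 817 and 676 TPM on HFD and 502, 553, 451, 482 and 465 TPM with imeglimin. The groups did not overlap, as for 6.81% of genes in BAT. The log2 difference was -0.52 (SE 0.0857, limma adjusted p = 0.0446). It was -0.38 (limma adjusted p = 0.103) with median-ratio scaling, and it no longer passed without library 76 (limma adjusted p = 0.117), 79 (0.106), 80 (0.118), 89 (0.135), 91 (0.103) or 94 (0.112). The 8 that did not pass were added after their values were seen. Hk2, a muscle and fat hexokinase, differed by -0.79 (SE 0.194, limma adjusted p = 0.0637) and Hk1 by -0.45 (SE 0.121, limma adjusted p = 0.0778). Of the phosphofructokinases, Pfkl differed by -0.45 (SE 0.0985, limma adjusted p = 0.0556), Pfkp by -0.40 (SE 0.101, limma adjusted p = 0.0675) and Pfkm by -0.36 (SE 0.360, limma adjusted p = 0.566). Pfkfb2 differed by -0.13 (SE 0.129), Pfkfb4 by -0.07 (SE 0.127) and Khk by 0.01 (SE 0.192). The other 4 lists had 0 called in BAT by limma, with lowest p-values for Ldha, lactate dehydrogenase A (-0.37, limma adjusted p = 0.0556), Ppp1r3b, a glycogen-targeting phosphatase subunit (-0.97, limma adjusted p = 0.0622), Mlx, the partner of the carbohydrate response factor (-0.28, limma adjusted p = 0.0928), and Glud1, glutamate dehydrogenase (-0.11, limma adjusted p = 0.436). Their medians were -0.13 for gluconeogenic enzymes, 0.25 for amino acid entry, -0.11 for transcriptional regulators and -0.21 for glucagon and insulin response.

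In sWAT 1 of the 14 tested gluconeogenic enzymes rose and 13 did not pass, where 0.0146% of all genes were called. The list median was 0.06 against 0.04 for all genes. The gene that rose was Pck1, cytosolic phosphoenolpyruvate carboxykinase, which takes the oxaloacetate made by pyruvate carboxylase onward and in fat supplies glycerol for triglyceride. It was at 488, 456, 508, 313 and 593 TPM on HFD and 1149.6, 2049, 1330.3, 1855 and 1241 TPM with imeglimin. The groups did not overlap, as for 3.05% of genes in sWAT. The log2 difference was 1.68 (SE 0.204, limma adjusted p = 0.0355). It ran from 1.54 to 1.77 with single libraries left out, and passed in 2 of those 10 settings, without 86 (limma adjusted p = 0.0495) and without 88 (0.0389), the others reaching up to 0.159. With median-ratio scaling it was 1.65 (limma adjusted p = 0.0956). In BAT it was -0.06 (SE 0.151) and in liver -0.05 (SE 0.319), and the difference of responses passed for sWAT minus liver (1.73, SE 0.364, limma adjusted p = 0.0480) and for BAT minus sWAT (-1.74, SE 0.364, limma adjusted p = 0.0140). With single numbers left out these passed in 2 of 10 settings (without 86 or 94) and 7 of 10 (not without 75, 80 or 91), and with median-ratio scaling in neither (limma adjusted p = 0.0970 and 0.0713). Pcx, which precedes Pck1 in the pathway, had a log2 difference of -0.42 in the same sWAT libraries and did not pass.

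The other 4 lists had 0 called in sWAT by limma. Their lowest p-values were for Txnip, which binds thioredoxin and responds to glucose (0.66, SE 0.165, limma adjusted p = 0.248), Foxo1, a forkhead regulator held out of the nucleus by insulin (0.30, SE 0.103, limma adjusted p = 0.337), Pkm (-0.22, SE 0.0789, limma adjusted p = 0.363) and Sdsl (-0.38, SE 0.223, limma adjusted p = 0.530). Their medians were 0.29 for glucagon and insulin response, 0.18 for transcriptional regulators, -0.17 for hexokinases and glycolytic control and 0.07 for amino acid entry.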

How the data were processed

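Per the labels, polyA-selected strand-specific libraries were sequenced from BAT, liver and sWAT, and the authors deposited TPM values for 55357 genes in 30 libraries, each summing to 1000000. The submitters' processing notes name STAR, RSEM and GRCm39. Because TPM keeps no depth, counting error cannot be stated. The 30 columns all differ (highest correlation between libraries 0.995).

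The log2(TPM + 1) values were tested with limma 3.58.1 (R 4.3.3, Python 3.11.15), with a variance trend and Benjamini-Hochberg adjustment over all genes tested and a threshold of 0.05. Genes entered a fit when 5 or more of its libraries reached 1 TPM. Imeglimin was compared with HFD within each tissue (10 libraries), the difference of responses was fitted over all 30 libraries, and tissues were compared over the 15 HFD libraries. Ratios and liver pair correlations were tested by exact permutation, and relations with Alb by permutation over 100000 orders in BAT and exactly in sWAT. The fits were tested on simulated data. All 8 genes are named. Of each of 5 lists, up to 4 genes past the threshold in a tissue are named, or the gene of lowest p where none passed, and 3 genes most like each member in liver. For the hexokinase and glycolytic control list in BAT, the genes that did not pass were added after their values were seen. The members and lists were chosen with earlier results of these data known. The relations with Alb, the search for paired E-box arms and the tissue comparison without number 88 were added after seeing the data. Alternatives changed the scaling, pseudocount, filter, variance trend, libraries and replicate block. Of genes sharing a span with the 8, Gm10851 lies opposite Pfkfb3, Apex2 opposite Pfkfb1, Lrfn4 opposite Pcx and Hcn3 opposite Pklr. Mir7085 lies on the strand of Slc37a4 and Gm37975 on that of Pfkfb3.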

Additional observations from a re-analysis of the deposited data

Results flagged for a closer look

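In sWAT with imeglimin, library 88 lay far above the other 4 of its group for 5 of the 8 genes. Gckr was at 22.6 TPM there with the next highest library at 2.35 TPM, G6pc at 53.6 TPM with the next at 1.22 TPM, Slc37a4 at 35.7 TPM with the next at 17.5 TPM, Fbp1 at 156 TPM with the next at 2.53 TPM, and Pklr at 17.3 TPM with the next at 0.771 TPM. These 5 were found among 48 groups examined, where chance alone gives about 1 in 20, and all 5 come from 1 library. That library also held 6876 TPM of Alb, and the part of liver or other RNA in these levels was not tested.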

How the results depend on the processing

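Of 982 alternatives, 866 were the same as the main result, 65 moved a count, 35 reversed, 12 lost and 4 gained a call. For differences, ratios and correlations the same means the same direction and side of the threshold, and for counts a similar size. The correlation with 2 libraries left out was judged by its sign only. Genes called in BAT with imeglimin went from 99 to 5 with median-ratio scaling, 307 without mitochondrially encoded genes, 0 with no filter, 352 with a 5 TPM filter, 10 with no variance trend, 0 with both muscle-rich libraries left out and 0 to 698 with single libraries left out; members called there were 0 to 1. In sWAT the 2 genes went to 1 with median-ratio scaling, 1 without mitochondrially encoded genes, 0 with no filter, 0 with no variance trend and 0 to 4 over left-out libraries. For the difference of responses, BAT minus liver went from 25 to 10 with median-ratio scaling, 5 with no filter and 0 to 193; sWAT minus liver from 19 to 2 with median-ratio scaling, 6 without mitochondrially encoded genes, 2 with a pseudocount of 0.1 and 0 to 89; BAT minus sWAT from 306 to 37 with median-ratio scaling, 202 with a pseudocount of 0.1 and 23 to 867.

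The main fits did not pair libraries by number, since the labels do not say that numbers stand for separate animals. The data did hint at pairing. Of 30 same-number correlations of deviations, 25 were positive and 9 were above 0.1 (range -0.48 to 0.31). In 17 of the 30 the same number gave the highest correlation among the 5 libraries of its group. With the number as a block, the tissue contrasts on HFD called as many members higher and lower as without it. With the replicate number as a block, the counts went from 25 to 9 for BAT minus liver, 19 to 14 for sWAT minus liver and 306 to 327 for BAT minus sWAT; no member was called with or without the block.

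Members called between BAT and sWAT, counting Gckr and Pklr that passed the filter through liver, went from 7 to 4 in the imeglimin libraries, where Gckr (-0.38), G6pc (-0.69) and Pklr (-0.17) reversed. With median-ratio scaling Pcx, liver minus sWAT, reversed to 0.13, Slc37a4, BAT minus sWAT, to 0.74, and 0 of the 28 liver pairs passed. Over left-out libraries, values changed sign for imeglimin minus HFD in BAT for Fbp1 (-0.0857 to 0.89), G6pc (-0.000973 to 0.45) and Pfkfb1 (-0.00582 to 0.18); in liver for Fbp1 (-0.0514 to 0.00367), G6pc (-0.54 to 0.22), Gckr (-0.0240 to 0.0473), Pfkfb1 (-9.4e-05 to 0.23) and Pfkfb3 (-0.0878 to 0.58); in sWAT for Pfkfb1 (-0.0816 to 0.0274); for G6pc, BAT minus sWAT (-0.00511 to 0.40); and for the log2 ratios of Fbp1 to Pcx in BAT (-0.13 to 1.66), Pfkfb3 to Pfkfb1 in liver (-0.26 to 0.46), Pklr to G6pc in liver (-0.42 to 0.41), and Slc37a4 to G6pc in liver (-0.15 to 0.70) and sWAT (-1.58 to 0.13). None of these was called. The causes were not tested. Depth is unknown, so levels under about 1 TPM have no stated precision.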
